A study of Mus musculus with 12 samples.

Results

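The genes described here are 46 protein-coding genes of DNA replication and S phase, chosen by symbol from the 36875 gene symbols of a mouse RNA-sequencing count table. They comprise 5 genes of origin licensing, 12 of the replicative helicase, 18 of the polymerases and other fork proteins, 5 of nucleotide supply, 3 of chromatin copying and 3 of S phase entry. All 46 were in the table, and all 46 passed the filter on low counts. RNA came from fibroblast-like synoviocytes in culture, which are connective tissue cells that line the joint, with 4 libraries in each of 3 groups. Homeostasis animals drank 5% sucrose water over 3 weeks, and the sample descriptions call them WT. Inflammation animals drank 1 mg/ml doxycycline with 5% sucrose over 3 weeks (DOX ON). Resolution animals had that doxycycline course, which was then stopped (DOX OFF). The extraction protocol of all 12 libraries names mice with arthritis induced by tumour necrosis factor (TNF). The sources used here do not name the transgene, its promoter, the strain, the age or sex of the mice, the time after withdrawal or the passage of the cells. Nor do they state whether libraries within a group are from different mice or cultures. P-values therefore measure the spread among these libraries, which may be technical.

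Before S phase, the origin recognition complex (ORC), CDC6 and CDT1 load the ring of MCM2 to MCM7 onto replication origins, and geminin prevents reloading by binding CDT1. In S phase, CDC45 and the GINS complex turn that ring into an active helicase, primase with polymerase alpha starts each strand, and polymerases delta and epsilon, held by the PCNA clamp, extend it. E2F transcription factors, held back by the retinoblastoma protein until cyclin-dependent kinases release them, switch on many of these genes together, so that their mRNAs are abundant in dividing cells and scarce in resting ones.

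Letters that E2F factors recognise were searched in the promoters because the genes moved together. Windows from 250 bases before to 50 bases after a transcription start were taken from RefSeq (build GRCm38.p6) and matched 37 of the 46 genes. Gins1, Gins2, Gins4, Mcm4, Rfc2, Prim2, Pole, Gmnn and Ccne2 were not matched. The letters TTTCCCGC, TTTCGCGC, TTTGGCGC or TTTGCCGC, on either strand and with overlaps allowed, were in windows of 14 of the 37 genes (37.8%), against 478 of the 10788 tested genes with a window (4.43%). They were in 3 of 4 licensing genes, 5 of 8 helicase genes, 5 of 15 polymerase and fork genes and 0 of 5 nucleotide supply genes. In the remaining roles, the letters were in 1 of 3 chromatin copying genes and 0 of 2 S phase entry genes. Outside the 46, they were in 17 of 56 other replication genes (30.4%) and 2 of 22 mitosis genes (9.09%). Against homeostasis, the 14 genes with the letters had median log2 fold changes of -1.51 in inflammation and -2.39 in resolution. The 23 matched genes without them fell as well (-1.25 and -1.83), and the difference was not tested. The letters TTTGAA, which mark the CHR element of many mitotic promoters, were in 13.5% of the replication genes, 72.7% of 22 mitosis genes and 14.6% of all tested genes, searched in the same way. CCAAT was in 59.5% of the replication genes, among them 8 of 8 helicase genes, and in 42.5% of all tested genes. A match in letters is a description and not a measured binding site. The windows of 5 licensing, helicase and clamp loader genes are given 5′ to 3′, from 170 bases before to 30 after the start, with the matched letters in capitals. In Mcm5 and Mcm6, matches on opposite strands overlap in 1 run. The Orc1 and Cdc6 windows lie inside the RefSeq gene spans, which begin at 108575705 and 98907709. The starts used for these genes are therefore not the first base of the gene.
Orc1, chr4:108579284-108579483, plus strand: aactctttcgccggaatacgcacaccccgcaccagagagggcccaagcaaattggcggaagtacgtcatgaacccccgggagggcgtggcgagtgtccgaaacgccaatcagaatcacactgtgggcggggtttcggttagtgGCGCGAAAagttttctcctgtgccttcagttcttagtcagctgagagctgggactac
Cdc6, chr11:98907981-98908180, plus strand: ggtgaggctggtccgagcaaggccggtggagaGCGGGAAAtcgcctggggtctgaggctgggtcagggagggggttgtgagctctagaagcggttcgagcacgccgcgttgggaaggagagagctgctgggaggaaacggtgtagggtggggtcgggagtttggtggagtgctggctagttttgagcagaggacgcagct
Mcm5, chr8:75109339-75109538, plus strand: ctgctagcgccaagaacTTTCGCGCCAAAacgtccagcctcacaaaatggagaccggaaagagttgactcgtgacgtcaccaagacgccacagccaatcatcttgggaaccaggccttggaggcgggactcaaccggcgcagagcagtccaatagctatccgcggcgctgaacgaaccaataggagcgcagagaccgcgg
Mcm6, chr1:128359676-128359875, minus strand: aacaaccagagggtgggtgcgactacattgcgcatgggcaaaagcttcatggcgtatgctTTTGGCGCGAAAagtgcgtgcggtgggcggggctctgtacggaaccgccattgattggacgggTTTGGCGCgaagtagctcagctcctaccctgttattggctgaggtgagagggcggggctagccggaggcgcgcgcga
Rfc3, chr5:151651179-151651378, minus strand: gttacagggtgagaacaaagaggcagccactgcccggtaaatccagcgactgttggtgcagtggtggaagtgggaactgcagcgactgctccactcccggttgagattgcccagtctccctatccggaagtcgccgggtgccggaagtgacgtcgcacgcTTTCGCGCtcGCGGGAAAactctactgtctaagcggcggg

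Library totals ran from 18120745 to 34971537 counts. Levels are normalized CPM (counts scaled to library size with TMM factors), as mean ± SD with n = 4. The 12 fibroblast markers summed to 29810 to 32170 CPM in homeostasis, 22210 to 25720 in inflammation and 11470 to 17050 in resolution. Such sums follow the most abundant genes, and the markers did not move together. Against homeostasis, 5 were called lower and 2 higher in inflammation, and 8 and 2 in resolution. Col1a1 went from 8116 to 10290 CPM in homeostasis to 1922 to 4691 in resolution. Dcn rose from 101 to 219.5 CPM to 749 to 1071. All 16 macrophage markers rose in inflammation, where they summed to 721 to 811 CPM against 126 to 167 in homeostasis. In resolution 10 of them fell and 0 rose (summed level 69.3 to 79.4 CPM), and none was at 0 throughout a group. The 11 chondrocyte markers summed to 1033 to 1323, 202 to 281 and 107 to 151 CPM in the 3 groups, with Col2a1 alone at 756 to 964 CPM in homeostasis. Markers of Schwann cells, skeletal muscle and endothelium summed to at most 41.0, 91.1 and 23.1 CPM in any library. In inflammation the muscle sum was mostly Acta1 (51.7 to 84.5 CPM), while 4 of 5 tested muscle markers were called lower. All 4 tested Y-linked genes were expressed in every homeostasis library. In the doxycycline groups they had no count, except 3 counts of Ddx3y in inflammation 1. Xist, the other sex-linked gene examined, was at 6.74 to 13.5 CPM in homeostasis, 71.5 to 154 CPM in inflammation and 123 to 268 CPM in resolution. Only the homeostasis libraries are called WT. In the comparisons against homeostasis, which also share their controls, sex, cell source, any genotype difference and the doxycycline course cannot be told apart.

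The replication genes fell in inflammation and were lower still in resolution. Together the 46 genes summed to 3366 to 3795 CPM (3588 ± 182) in homeostasis, 1424 to 1513 CPM (1464 ± 37.8) in inflammation and 904 to 1034 CPM (963 ± 53.6) in resolution, with no overlap between the groups. Against homeostasis, 44 of 46 were called lower in inflammation and 0 higher, where 18.3% of the 15049 genes tested were called lower and 19% higher. In resolution 46 of 46 were called lower and 0 higher, against 25.8% and 27.5% of all genes. A call is an adjusted p under 0.05 in the quasi-likelihood test of edgeR. With a change of at least 2-fold as well, 34 were lower in inflammation (4.98% of all genes) and 40 in resolution (8.25%). In 44 and 45 of the 46, every library lay below every homeostasis library, against 17.3% and 21.6% of all genes. The median log2 fold change of the 46 was -1.27 in inflammation and -2.04 in resolution, beside -0.01 and -0.01 over all genes tested. That median stands for 41.5% and 24.4% of the homeostasis level. In these bulk libraries, fewer cells in S phase and less of these mRNAs per cell cannot be told apart. Macrophage markers were highest in inflammation and lowest in resolution, and their part in the result was not tested.

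**Figure D1:**
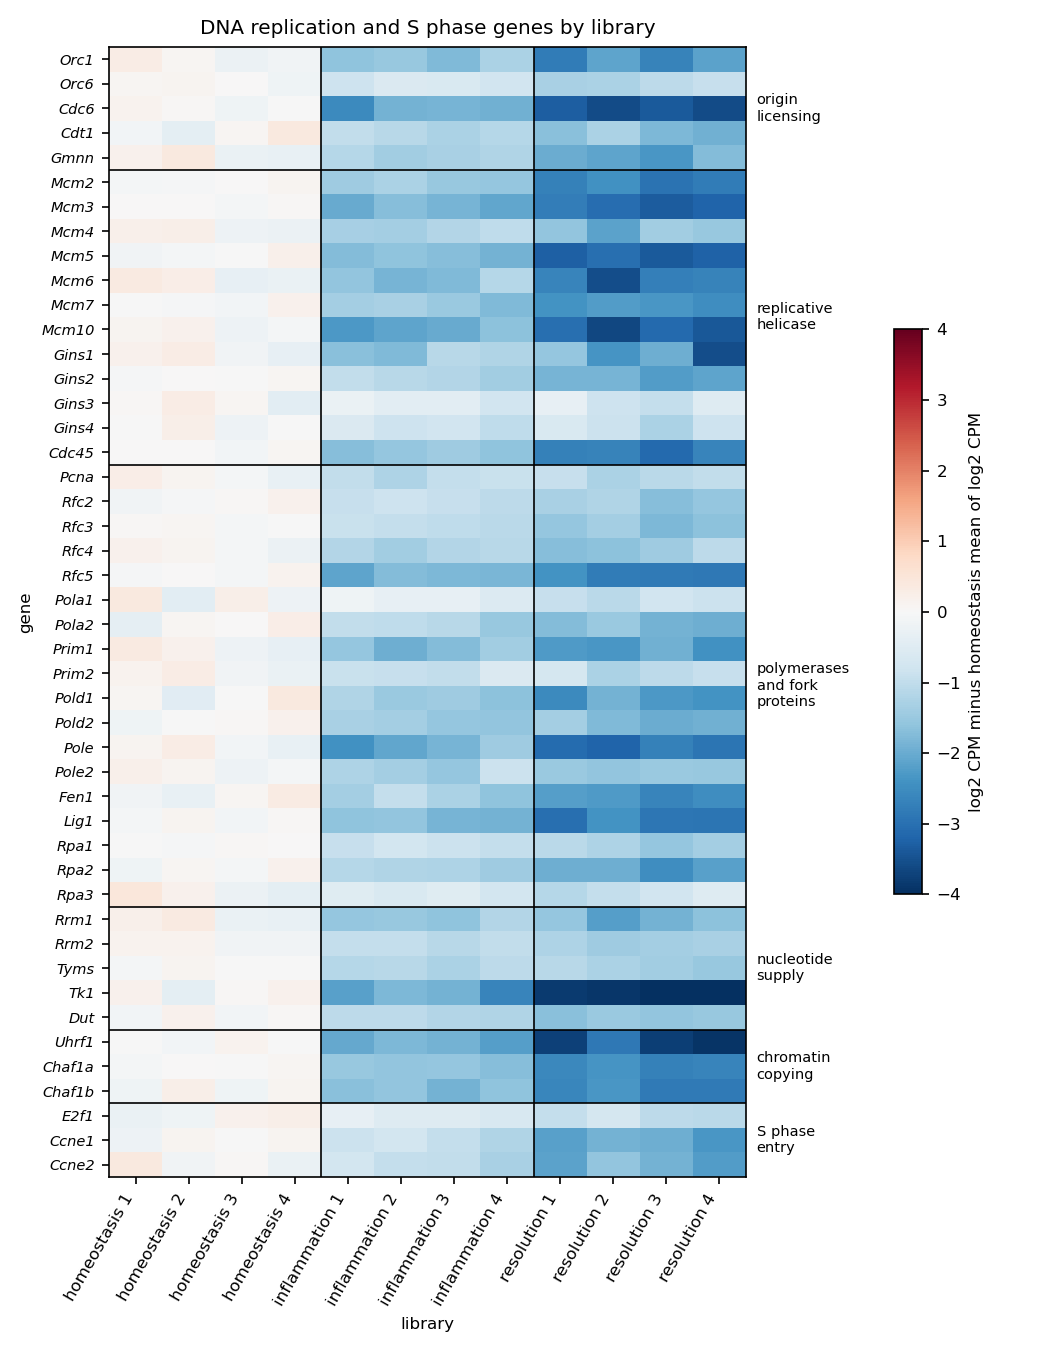
Log2 CPM of the 46 genes (rows, by role) in the 12 libraries (columns), each less the mean of its homeostasis libraries. Colours run from -4 to 4, and 40 of the 46 genes were at least 2-fold lower in resolution, the others being Gins3, Gins4, Pola1, Prim2, Rpa3 and E2f1.

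All 5 licensing genes were called lower in both comparisons against homeostasis (median log2 fold changes -1.29 and -2.06). Cdc6 encodes the ATPase that joins ORC at an origin to load the MCM ring (11:98907709 to 98923942 on GRCm38). It stood at 37.3, 35.3, 30.4 and 34.2 CPM in homeostasis 1 to 4, at 5.89, 9.21, 9.45 and 9.02 CPM in inflammation and at 3.505, 2.85, 3.36 and 2.87 CPM in resolution. The groups did not overlap, and resolution was lowest. Its log2 fold change was -2.03 ± 0.17 SE in inflammation (adjusted p = 1.79e-08) and -3.45 ± 0.18 SE in resolution (adjusted p = 1.63e-11), the latter 10.9-fold lower.

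Orc1, the largest ORC subunit, was at 20.7, 17.8, 14.4 and 15.2 CPM in homeostasis, 5.48, 5.94, 4.995 and 6.94 CPM in inflammation and 2.42, 3.88, 2.63 and 3.79 CPM in resolution. Its groups were separate too, with log2 fold changes of -1.54 ± 0.19 and -2.42 ± 0.20 SE (adjusted p = 3.31e-06 and 7.62e-09). Gmnn, which encodes geminin, was at 25.8, 30.2, 19.3 and 18.7 CPM in homeostasis, 10.4, 8.84, 9.304 and 9.94 CPM in inflammation and 5.77, 5.33, 4.54 and 6.84 CPM in resolution. It was lowest in resolution without overlap (-1.29 ± 0.18 and -2.06 ± 0.18 SE, adjusted p = 1.37e-05 and 2.59e-08). Cdt1, the loading factor that geminin binds, fell as well, from 31.4 ± 7.18 to 14.1 ± 1.05 and 9.85 ± 1.99 CPM (log2 fold changes -1.15 and -1.67). Orc6, another ORC subunit, had the smallest log2 fold change of the 5 in resolution, although Cdt1 had a smaller one (-1.37 against -1.50) in a fit with offsets for GC content and length. Orc6 was at 39.95, 41.03, 38.2 and 33.6 CPM in homeostasis, 21.5, 25.5, 24.8 and 22.5 CPM in inflammation and 15.5, 15.7, 18.6 and 20.2 CPM in resolution, again without overlap (-0.69 ± 0.14 and -1.12 ± 0.14 SE, adjusted p = 0.000611 and 2.00e-06).

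Other ORC subunit genes, outside the 46 and, but for Orc4, singled out after their values were seen, went the opposite way. Orc2, Orc3, Orc4 and Orc5 were each called higher in both comparisons against homeostasis. Orc4 was at 31.3, 26.5, 31.1 and 25.3 CPM in homeostasis, 48.9, 47.8, 51.2 and 41.3 CPM in inflammation and 60.6, 53.1, 69.7 and 65.3 CPM in resolution. Its resolution libraries lay above its inflammation libraries, yet that difference did not pass (0.40 ± 0.13 SE, adjusted p = 0.0501), although it did in some other settings, DESeq2 among them. In resolution against homeostasis, the log2 fold changes were 0.91 ± 0.16 SE for Orc2, 0.96 ± 0.16 for Orc3, 1.12 ± 0.14 for Orc4 and 1.04 ± 0.17 for Orc5 (adjusted p = 0.000122, 4.66e-05, 1.36e-06 and 3.38e-05). When the fit carried offsets for transcript GC content and length, a setting added once the values were known, these were 0.47, 0.35, 0.24 and 0.45, and all 4 passed. With those offsets Orc3 and Orc4 did not pass in inflammation (0.26 and 0.11, adjusted p = 0.0537 and 0.327), and Orc2 did not with homeostasis 1 and 2 as the sole controls (0.48, adjusted p = 0.0614).

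**Figure D2:**
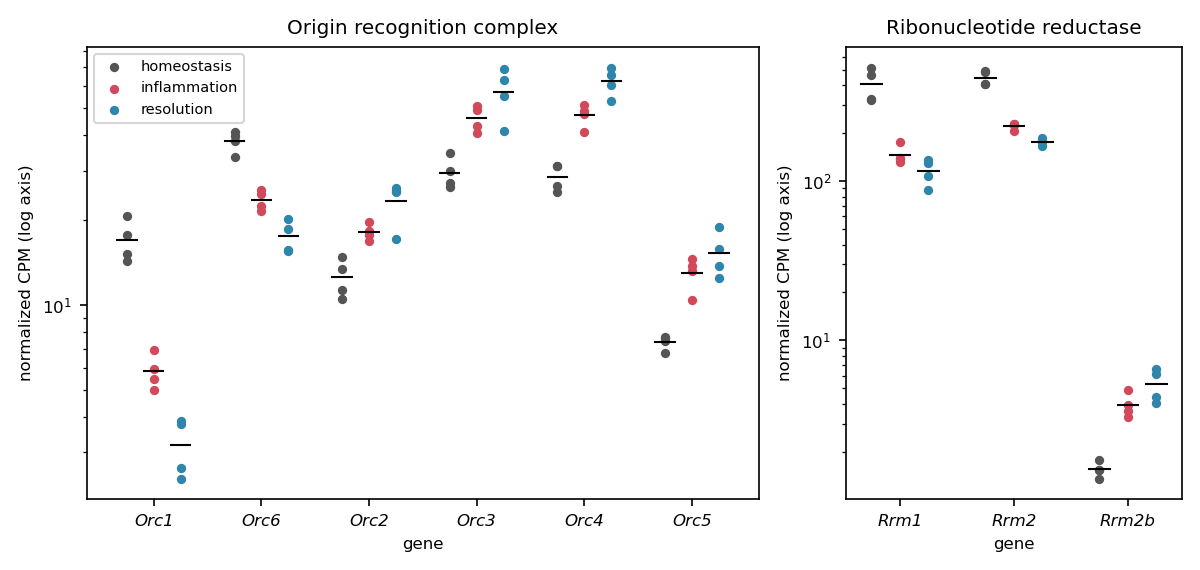
Normalized CPM on a log axis of the ORC genes (left) and the ribonucleotide reductase genes (right), with 1 point per library and a bar at the mean of 4 libraries. Orc1, Orc6, Rrm1 and Rrm2 have lower means in inflammation and resolution than in homeostasis, and Orc2 to Orc5 and Rrm2b higher means.

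Of the 12 helicase genes, 11 were called lower in inflammation and 12 in resolution (median log2 fold changes -1.46 and -2.54). Mcm10, which encodes a factor that helps activate the helicase, was at 38.2, 40.5, 30.9 and 33.98 CPM in homeostasis, 7.26, 8.27, 8.91 and 11.5 CPM in inflammation and 4.38, 2.85, 4.13 and 3.42 CPM in resolution. Mcm5, a subunit of the MCM ring (8:75109468 to 75128439), was at 154, 162, 167 and 196 CPM, then 50.6, 55.6, 52.1 and 45.9 CPM, then 17.5, 20.7, 16.3 and 18.1 CPM. Mcm3, another ring subunit, was at 179.9, 183, 172 and 185 CPM, then 44.8, 55.1, 49.5 and 42.7 CPM, then 26.3, 21.9, 17.9 and 19.4 CPM. In each of these genes the 3 groups were fully separate, and resolution was lowest. Their log2 fold changes in resolution were -3.28 ± 0.19, -3.23 ± 0.14 and -3.07 ± 0.14 SE (adjusted p = 5.78e-11, 1.94e-12 and 4.26e-12), which for Mcm5 is 9.35-fold lower.

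The 6 ring subunits, whose products assemble into 1 ring, all fell, with log2 fold changes whose differences were not tested. In resolution against homeostasis the log2 fold changes were -2.71 for Mcm2, -3.07 for Mcm3, -1.65 for Mcm4, -3.23 for Mcm5, -2.89 for Mcm6 and -2.36 for Mcm7. Divided by transcript length, the homeostasis level was 59.3 ± 1.94 CPM per kb for Mcm3, 50.2 ± 5.53 for Mcm5 and 49.9 ± 2.71 for Mcm2. It was 32.2 ± 2.55 CPM per kb for Mcm7, 25.8 ± 4.56 for Mcm4 and 20.4 ± 5.03 for Mcm6. Of the neighbours in that order, the ranges of mean ± SD overlapped for Mcm5 and Mcm2, Mcm7 and Mcm4, and Mcm4 and Mcm6. These genes share the same libraries, and their differences within a library were not tested. In resolution Mcm4 had the highest mean per kb (8.24 ± 1.74 CPM per kb), within the spread of Mcm2 (7.63 ± 1.16) and Mcm3 (7.05 ± 1.22), and Mcm6 the lowest (2.75 ± 0.711). Mcm4, singled out after its values were seen, was at 105, 108, 80 and 77.03 CPM in homeostasis, 36.3, 35.7, 41.04 and 45.5 CPM in inflammation and 30.7, 20.6, 34.7 and 32.4 CPM in resolution. It was the only ring subunit not called lower between inflammation and resolution (-0.42 ± 0.17 SE, adjusted p = 0.0899), although the libraries did not overlap, and it passed with GC and length offsets (-0.62, adjusted p = 0.000318).

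Cdc45, which encodes the factor that joins GINS on the active helicase, went from 65.1 ± 3.17 to 22.1 ± 1.76 and 9.53 ± 1.37 CPM (log2 fold changes -1.56 and -2.77). The 4 GINS genes, whose products form 1 complex, were all called lower in resolution. There the log2 fold change was -2.21 for Gins1, -2.01 for Gins2, -0.88 for Gins4 and -0.66 for Gins3. Gins3 had the lowest mean level per kb of the 46 in each group. It was at 2.39, 2.801, 2.45 and 1.72 CPM in homeostasis, 1.92, 1.72, 1.71 and 1.37 CPM in inflammation and 1.85, 1.31, 1.18 and 1.62 CPM in resolution. Its groups overlapped, and it did not pass in inflammation (-0.48 ± 0.25 SE, adjusted p = 0.146). In resolution it was at -0.66 ± 0.26 SE (adjusted p = 0.0381). That call was lost in DESeq2, when a change beyond 1.5-fold was required, and in 11 other settings. Among the 11 were fits without homeostasis 1, 2 or 3, inflammation 2 or resolution 2, 3 or 4 (-0.70 to -0.54, adjusted p up to 0.113).

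Of the 18 polymerase and fork genes, 17 were called lower in inflammation and 18 in resolution (median log2 fold changes -1.23 and -1.66). Pole, the catalytic subunit of the leading strand polymerase epsilon, was at 64.7, 74, 55.6 and 49.4 CPM in homeostasis, 11.3, 14.1, 16.4 and 22.4 CPM in inflammation and 7.16, 6.59, 9.17 and 7.996 CPM in resolution. Lig1, the ligase that joins Okazaki fragments, was at 117, 134, 114 and 127 CPM, then 40.03, 41.4, 33.7 and 33.1 CPM, then 15.1, 23.2, 16.4 and 16.2 CPM. Rfc5, a subunit of the clamp loader, was at 33.05, 34.6, 32.3 and 37.97 CPM, then 7.95, 10.2, 9.99 and 9.72 CPM, then 6.55, 4.95, 4.86 and 4.71 CPM. Each separated the 3 groups completely. Their log2 fold changes in resolution were -2.98 ± 0.20, -2.79 ± 0.15 and -2.71 ± 0.16 SE (adjusted p = 5.48e-10, 3.41e-11 and 7.55e-11).

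Subunits of 1 complex differed in size of change here too. The clamp loader genes Rfc2, Rfc3 and Rfc4 were at log2 fold changes of -1.43, -1.58 and -1.44 in resolution, beside -2.71 for Rfc5, and with GC and length offsets Rfc4 was at -2.07. Pole2, the second subunit of polymerase epsilon, was at -1.53 beside -2.98 for Pole. Among the primase and polymerase alpha genes, Prim1 (-2.25) and Pola2 (-1.77) were further from 0 than Prim2 (-0.99) and the catalytic subunit Pola1 (-0.93). Pola1 was at 13.2, 7.603, 12.02 and 8.88 CPM in homeostasis and 9.001, 8.03, 8.08 and 6.98 CPM in inflammation, which overlapped, and did not pass there (-0.37 ± 0.18 SE, adjusted p = 0.117). It passed there with GC and length offsets (-0.81, adjusted p = 0.000598) and without homeostasis 2 (-0.48, adjusted p = 0.0419). In resolution those offsets took Pola1 to -1.70, further from 0 than Pola2 (-1.45), so that the order of these subunits depends on the setting. The polymerase delta genes Pold1 and Pold2 were at -2.28 and -1.74 in resolution, and Fen1, the flap nuclease of Okazaki fragments, at -2.4. The differences between subunits were not tested.

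Pcna, the sliding clamp, was at 48.5, 43.3, 37.95 and 33.1 CPM in homeostasis, 20.1, 17.1, 20.7 and 21.6 CPM in inflammation and 21.1, 16.9, 19.02 and 20.4 CPM in resolution. It was lower in every doxycycline library than in any homeostasis library, while inflammation and resolution overlapped. Its log2 fold changes were -1.03 ± 0.15 and -1.07 ± 0.15 SE (adjusted p = 2.26e-05 and 6.81e-06). Of the genes of RPA, which coats single-stranded DNA, Rpa2 was at -2.13, Rpa1 at -1.29 and Rpa3 at -0.86 in resolution. With GC and length offsets these were -1.91, -1.24 and -1.75, which puts Rpa3 beyond Rpa1. Rpa3 was at 13.3, 10.99, 8.21 and 7.48 CPM in homeostasis, 6.99, 6.43, 6.95 and 5.88 CPM in inflammation and 4.43, 5.04, 5.72 and 6.84 CPM in resolution. Neither doxycycline group overlapped with homeostasis, but the doxycycline groups overlapped with each other. Its call in inflammation (-0.61 ± 0.20 SE, adjusted p = 0.0196) was lost without homeostasis 1 or 2 or inflammation 2 or 4 (-0.58 to -0.43), and with homeostasis 3 and 4 as the sole controls (-0.23, adjusted p = 0.406), whereas GC and length offsets gave -1.29 (adjusted p = 8.72e-06).

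All 5 nucleotide supply genes were called at least 2-fold lower in both comparisons against homeostasis (medians -1.13 and -1.56). Tk1, the thymidine kinase of dividing cells (11:117815519 to 117826087), had the largest log2 fold change of the 46 in resolution. It was at 37.9, 25.4, 34.4 and 38.1 CPM in homeostasis, 7.45, 9.704, 9.01 and 5.35 CPM in inflammation and 2.37, 2.24, 1.86 and 2.03 CPM in resolution. The 3 groups were separate, with log2 fold changes of -2.11 ± 0.19 and -3.99 ± 0.21 SE (adjusted p = 6.31e-08 and 2.01e-11), the latter 15.9-fold lower. Rrm1, the large subunit of ribonucleotide reductase, which makes deoxyribonucleotides, was at 465, 518, 330.5 and 324 CPM in homeostasis, 138, 139.6, 132 and 177 CPM in inflammation and 136, 87.8, 107 and 129.7 CPM in resolution. Its inflammation and resolution libraries overlapped, and both lay below homeostasis (-1.48 ± 0.17 and -1.83 ± 0.17 SE, adjusted p = 1.98e-06 and 6.70e-08).

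Dut, the enzyme that keeps uracil out of DNA by hydrolysing dUTP, was at 73.7, 89.4, 73.6 and 83.2 CPM in homeostasis, 38.4, 38.9, 35.3 and 34.2 CPM in inflammation and 24.8, 28.7, 26.8 and 28.1 CPM in resolution. Tyms, thymidylate synthase, was at 75.7, 87.3, 79.3 and 79.2 CPM, then 36.7, 37.5, 33.7 and 39.2 CPM, then 37.5, 33.7, 30.9 and 27.8 CPM. Dut separated the 3 groups, whereas Tyms overlapped between inflammation and resolution. Their log2 fold changes in resolution were -1.56 ± 0.13 and -1.31 ± 0.13 SE (adjusted p = 6.75e-09 and 1.04e-07). Rrm2, the small reductase subunit made in S phase, went from 447 ± 48.4 to 223 ± 10.2 and 177 ± 8.93 CPM (log2 fold changes -1.01 and -1.34). Rrm2b, outside the 46, encodes the alternative small subunit that p53 induces. It was at 1.78, 1.35, 1.54 and 1.54 CPM in homeostasis, 3.61, 3.93, 3.28 and 4.91 CPM in inflammation and 4.43, 4.06, 6.63 and 6.101 CPM in resolution, higher in every doxycycline library than in any homeostasis library. It rose in both (1.35 ± 0.23 and 1.78 ± 0.23 SE, adjusted p = 0.000138 and 2.67e-06), and its log2 fold changes with GC and length offsets were 0.81 and 0.91, which also passed.

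The 3 chromatin copying genes fell in both comparisons against homeostasis (medians -1.70 and -2.65). Uhrf1, which reads hemimethylated DNA behind the fork, was at 81.8, 77.1, 90.3 and 81.5 CPM in homeostasis, 19.97, 23.8, 22.3 and 18.1 CPM in inflammation and 6.18, 11.3, 6.13 and 5.5 CPM in resolution. Chaf1a, the large subunit of the chromatin assembly factor CAF-1, was at 109, 116, 114 and 122 CPM, then 40.4, 38.6, 39.8 and 35.04 CPM, then 19.4, 22.3, 17.8 and 18.4 CPM. Chaf1b, its partner, was at 46.05, 61.8, 46.7 and 56.4 CPM, then 16.4, 17.4, 14.1 and 17.1 CPM, then 8.66, 10.4, 7.35 and 7.302 CPM. No groups overlapped in these genes. Their log2 fold changes in resolution were -3.51 ± 0.20, -2.57 ± 0.13 and -2.65 ± 0.16 SE (adjusted p = 5.00e-11, 8.92e-12 and 1.21e-10).

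All 3 genes of S phase entry were called lower in inflammation, 0 of them by 2-fold, and in resolution (medians -0.94 and -1.95). Ccne1, one of the E-type cyclins that drive entry into S phase, was at 67.6, 84.7, 77.7 and 85.3 CPM in homeostasis, 42.9, 47.6, 40.1 and 33.98 CPM in inflammation and 17.3, 20.97, 20.3 and 15.7 CPM in resolution. Ccne2, the other, was at 16.4, 11.5, 12.99 and 10.5 CPM, then 7.58, 6.55, 6.46 and 5.13 CPM, then 2.89, 4.25, 3.45 and 2.68 CPM. Both stepped down without overlap, with log2 fold changes in resolution of -2.09 ± 0.15 and -1.95 ± 0.20 SE (adjusted p = 1.09e-09 and 1.89e-07). With GC and length offsets Ccne2 was at -1.64 in inflammation and at -2.80 in resolution. E2f1, an activating E2F factor, was at 46.6, 49.99, 63.6 and 66.6 CPM in homeostasis, 44.96, 39.1, 39.1 and 36.1 CPM in inflammation and 29.2, 34.7, 27.1 and 26.6 CPM in resolution. Its groups lay close without overlap (-0.51 ± 0.15 and -0.95 ± 0.15 SE, adjusted p = 0.0102 and 2.70e-05). With homeostasis 1 and 2 as the sole controls it did not pass in inflammation (-0.28, adjusted p = 0.194).

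**Figure D3:**
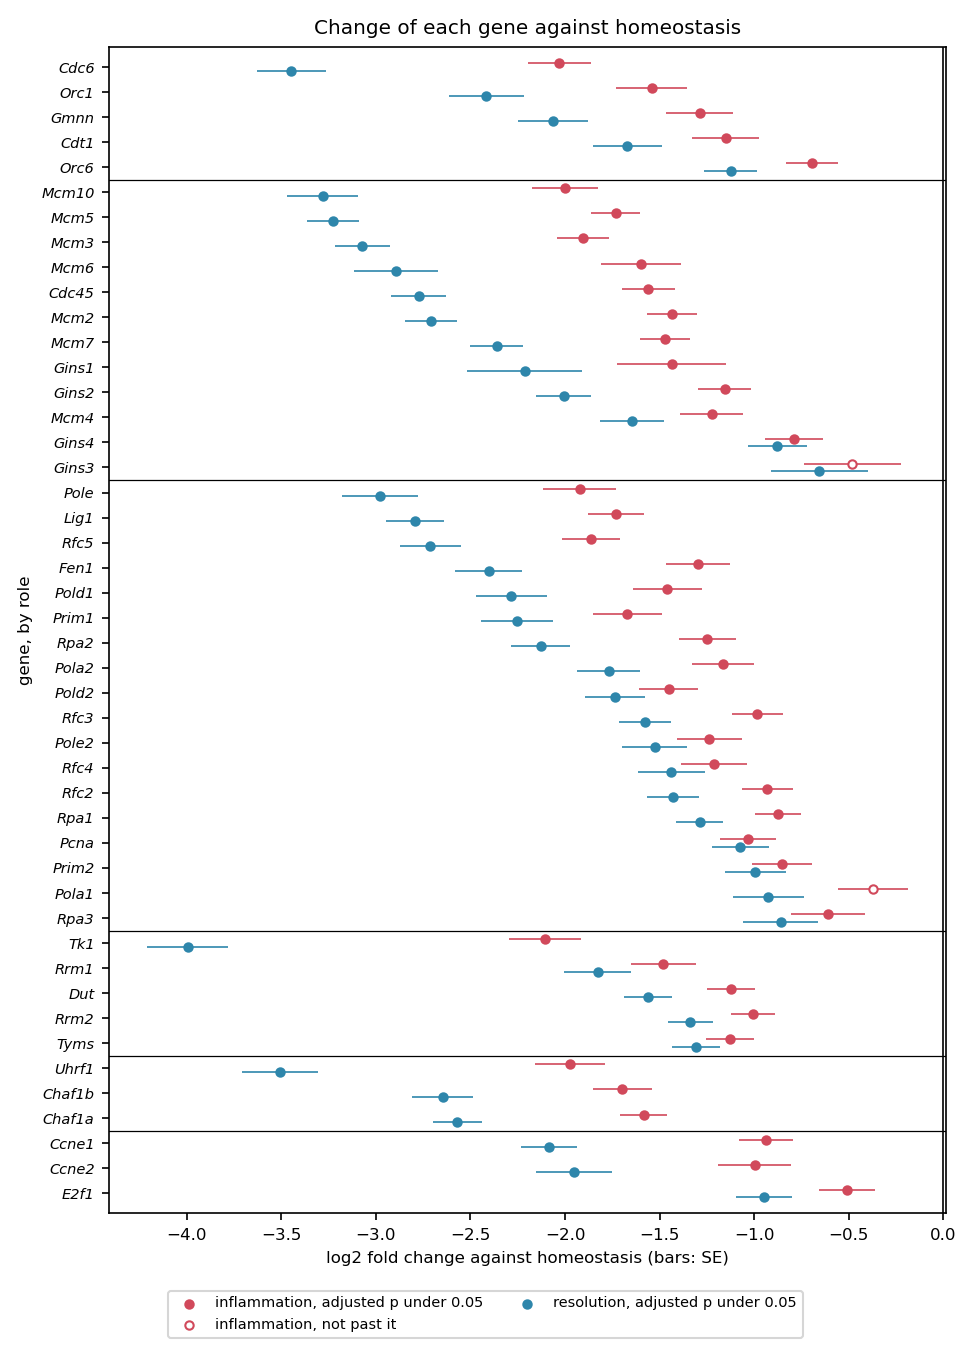
Log2 fold change of each of the 46 genes against homeostasis in inflammation (red) and resolution (blue), by role, with bars of 1 SE and open points for genes that did not pass. All points lie below 0 on the log2 scale, and the open ones are Gins3 and Pola1 in inflammation. The colours share their control libraries.

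Resolution against inflammation compares libraries of the group in which doxycycline was stopped with those of the DOX ON group. Age, passage and the time after withdrawal are not given, so withdrawal cannot be told apart from any difference in these. All 46 log2 fold changes were negative in this fit, so 0 were higher at an unadjusted p under 0.05. In all, 32 were called lower and 0 higher, where 7.64% of the 15049 genes were called lower and 8.52% higher. DESeq2 called 34 lower and 0 higher, beside 1375 lower and 1497 higher of the 16089 genes it tested. At least 2-fold lower were 13 (3.24% of all genes). The median was -0.78, beside 0.02 over all genes. In 33 of 46 every resolution library lay below every inflammation library, against 9.91% of all genes. The count of 32 was 13 when a change beyond 1.5-fold was required (349 of the 15049 genes). With the replicate number as a block over all 3 groups it was 28 (950 of the 15049 genes), without Orc6, Pola1, Prim1 and E2f1 (adjusted p = 0.0789, 0.0559, 0.067 and 0.0923). With the block fitted to inflammation and resolution alone, a setting added once the values were known, the count was 36, with Cdt1, Mcm4, Rrm1 and Rrm2 gained and none lost, while 2223 of all 14739 genes then tested were lower and 2585 higher.

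The falls that passed came from every role. In licensing, Cdc6, Orc1 and Gmnn fell by 1.42 ± 0.18, 0.87 ± 0.20 and 0.78 ± 0.18 SE on the log2 scale (adjusted p = 1.29e-05, 0.00536 and 0.00709). In the helicase, Mcm5, Mcm2 and Cdc45 fell by 1.49 ± 0.13, 1.27 ± 0.13 and 1.21 ± 0.14 SE (adjusted p = 1.25e-07, 1.15e-06 and 5.41e-06). At the fork, Lig1, Fen1 and Rpa2 fell by 1.06 ± 0.15, 1.11 ± 0.17 and 0.88 ± 0.15 SE (adjusted p = 5.00e-05, 0.00017 and 0.000439). Of the nucleotide supply genes only Tk1 and Dut passed, and they fell by 1.89 ± 0.21 and 0.44 ± 0.12 SE (adjusted p = 2.97e-06 and 0.0229). Among chromatin genes, Uhrf1, Chaf1a and Chaf1b fell by 1.53 ± 0.19, 0.98 ± 0.12 and 0.95 ± 0.16 SE (adjusted p = 1.19e-05, 1.42e-05 and 0.000345). Ccne1, Ccne2 and E2f1 fell by 1.15 ± 0.15, 0.95 ± 0.20 and 0.44 ± 0.15 SE (adjusted p = 1.66e-05, 0.0031 and 0.0491). E2f1 did not pass with the block over 3 groups, without homeostasis 3, inflammation 1, 2 or 3 or resolution 1, 3 or 4, without the filter on low counts, or with GC and length offsets, with which it was at -0.18 (adjusted p = 0.186).

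The 14 genes that did not pass were Cdt1, Mcm4, Gins1, Gins3, Gins4, Pcna, Rfc4, Prim2, Pold2, Pole2, Rpa3, Rrm1, Rrm2 and Tyms. Closest to 0 in this fit were Pcna (-0.04 ± 0.15 SE, adjusted p = 0.875), Gins4 (-0.09 ± 0.16 SE) and Prim2 (-0.14 ± 0.16 SE). Cdt1 and Rrm2 did not pass although their libraries did not overlap (-0.52 ± 0.18 and -0.33 ± 0.12 SE, adjusted p = 0.0534 and 0.0578), and both passed in DESeq2. With GC and length offsets Mcm4, Rrm1 and Rrm2 passed (-0.62, -0.58 and -0.47). Calls of Orc6, Pola1, Pola2, Prim1, Rpa1, Rfc2, Dut and E2f1 were each lost in at least 1 fit that left out a library.

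**Figure D4:**
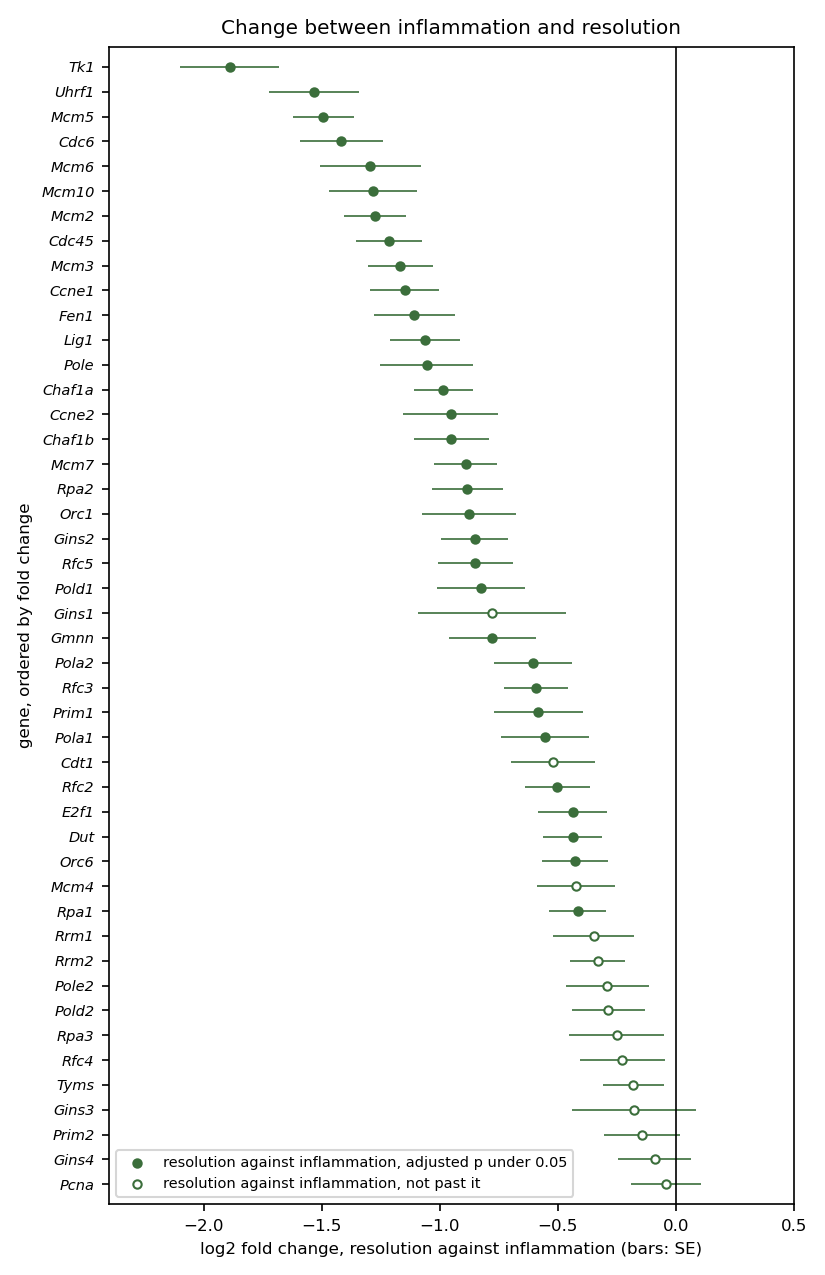
Log2 fold change of each of the 46 genes in resolution against inflammation with bars of 1 SE, ordered by size, filled where the adjusted p was under 0.05. Tk1 (-1.89), Uhrf1 (-1.53) and Mcm5 (-1.49) lie farthest from 0, and Pcna (-0.04) closest.

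Among other replication genes, more were called lower than higher in each comparison. Of 68 tested, 43 were called lower and 7 higher in inflammation, 48 and 10 in resolution, and 19 and 3 between inflammation and resolution (medians -0.69, -0.85 and -0.13). Over all genes tested, 18.3%, 25.8% and 7.64% were called lower in these comparisons, and 19%, 27.5% and 8.52% higher. Ticrr, which helps bring CDC45 to origins, went from 19.7 ± 3.69 to 3.79 ± 1.39 and 1.61 ± 0.638 CPM, and fell by 2.37 and 3.61 on the log2 scale. Recql4, a helicase gene of origin firing, fell by 1.69 and 3.11. Timeless, of the fork protection complex, fell by 1.43 and 2.24, Shmt1, which supplies one-carbon units for thymidylate, by 1.62 and 2.27, and Asf1b, a histone chaperone, by 1.99 and 3.19. Rfc1, the large clamp loader subunit, was at 30.9 ± 7.37, 31.8 ± 3.05 and 43.7 ± 8.53 CPM and passed in resolution with overlapping groups (0.50 ± 0.18 SE, adjusted p = 0.0222). That call was lost without homeostasis 3 or 4 or resolution 3 or 4 (0.36 to 0.48), with controls limited to homeostasis 1 and 2 (0.24) and with GC and length offsets (0.28, adjusted p = 0.09).

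Among regulators of S phase, Rb1, the retinoblastoma gene, was at 11.4, 7.36, 9.29 and 8.02 CPM in homeostasis, 17.2, 17.7, 19.3 and 15.9 CPM in inflammation and 33.5, 22.1, 41.4 and 35.9 CPM in resolution. Its groups did not overlap, and it rose in all 3 comparisons (0.96 ± 0.19, 1.89 ± 0.19 and 0.93 ± 0.18 SE, adjusted p = 0.000479, 1.15e-07 and 0.00156). With GC and length offsets its log2 fold changes against homeostasis were 0.51 and 1.10, and both passed. Rbl2, its relative p130, was singled out after its values were seen and went from 25.03 ± 8.67 to 32.9 ± 8.89 and 53.6 ± 11.1 CPM. It rose in resolution (1.09 ± 0.23 SE, adjusted p = 0.000528) and did not pass in inflammation (0.39 ± 0.23 SE, adjusted p = 0.192), where it did with controls limited to homeostasis 3 and 4 (0.92) or with GC and length offsets (0.42). Rbl1, a further relative, went the other way. It was at 10.3 to 17.4 CPM in homeostasis, 7.91 to 9.40 CPM in inflammation and 5.51 to 11.2 CPM in resolution, where it overlapped with homeostasis. Ccna2, the S phase cyclin, fell by 2.28 and 3.99 on the log2 scale, and E2f8, a repressor E2F, by 2.43 and 3.61. Ccnd1, the cyclin D1 gene, was at 136.5 to 155.4, 128.2 to 151 and 179.8 to 220 CPM in the 3 groups, highest in resolution without overlap. Of these 19 regulators, 11 were called lower and 3 higher in resolution against homeostasis, beside 25.8% and 27.5% of all genes.

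Genes of mitosis, the next phase of the cycle, were lower too. Of 25, 24 were called lower in inflammation, 25 in resolution and 24 between inflammation and resolution, with 0 higher each time. Their medians were -1.68, -2.96 and -1.27, beside -1.27, -2.04 and -0.78 for the 46 replication genes, and the difference was not tested. Mki67, the proliferation marker, went from 92.3 ± 20.5 to 32.1 ± 4.98 and 14.5 ± 4.83 CPM, and Plk1, a mitotic kinase gene, fell by 1.71 between inflammation and resolution (adjusted p = 7.97e-08).

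Across the 46 genes, Spearman's rho of the log2 fold change with transcript GC content was -0.30 in inflammation, -0.40 in resolution and -0.42 between them, and all genes share the same libraries. Offsets for GC content and length gave 45 lower in inflammation, 46 in resolution and 34 between them, with medians of -1.33, -1.98 and -0.72. With these offsets 3583, 3993 and 1184 of all 15049 genes tested were called lower, with medians of -0.039, 0 and 0.041. In 10 of the 46 genes over 10% of the exonic bases are also exons of another gene, most in Fen1 (78.8%, with Gm10143), Gins2 (70.7%, with Gse1) and Chaf1a (33.6%, with Ubxn6), all on the opposite strand. Whether the counting used strand is not stated, so reads of these genes and their neighbours cannot be told apart. All 12 values of Rfc4 were not whole numbers, so its reads may be shared with other loci, and its level is uncertain.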

How the data were processed

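Libraries were made from poly(A) RNA and read as pairs of 150 bases, per the labels' protocols. The authors deposited 1 table of estimated counts, without normalization, for each symbol and library. Per the submitters' processing notes the genome build was GRCm38.p3. Aligner, counter, strand setting and annotation: not given in the sources used here.

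Among 36930 entries, 13 had no value and were left out, and 42 repeats were summed. Counts were rounded, filtered with the default of edgeR (version 4.0.16; 15049 genes left), scaled by TMM and fitted with its robust quasi-likelihood test over 3 groups of 4. Benjamini-Hochberg adjustment covered all genes tested (threshold 0.05). The biological coefficient of variation was 18.6%. A count of 0 allows 3 counts of the library total, 0.0858 to 0.166 CPM, for counting error only. The fit was tested on simulated data with few changed genes and independent libraries. That setting does not cover libraries of a shared source or changes in many genes. Deviations of same-numbered libraries from their group means correlated at 0.126 to 0.214 in all 4 inflammation and resolution pairs, and at -0.228 to 0.08 in the pairs with homeostasis, while 2 of 12 differently numbered inflammation and resolution pairs were also over 0.1. The pairing of inflammation with resolution comes from this check and not from the labels.

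The genes and lists were chosen with earlier results of these data known. Values by library were given for the 3 largest changes and the smallest in each role (resolution against homeostasis). Pcna, Mcm4, Pola1 and other genes named beyond the rule were chosen after their values were seen. From each list of other replication genes, the smallest adjusted p per direction and comparison against homeostasis was named. Lengths and GC content are of the longest coding transcript in GENCODE M21, and gene positions are from RefSeq. Alternatives were RLE and upper-quartile factors, DESeq2 (version 1.42.0), no filter, 2-group fits, each library left out, a replicate block, homeostasis 1 and 2 or 3 and 4 as sole controls, a fold threshold of 1.5 and, added after seeing the data, GC and length offsets and a block fitted to inflammation and resolution alone, with and without those offsets.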

Additional observations from a re-analysis of the deposited data

Results flagged for a closer look

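In 7 of 138 sets of 4 libraries (46 genes in 3 groups), 1 library lay far from the other 3, with a gap to the nearest above Dixon's 95% critical value. Chance gives about 1 in 20 such sets. Cdc6 was at 5.89 CPM in inflammation 1 against 9.02 to 9.45 in the others. Rrm1 was at 177 CPM in inflammation 4 against 132 to 139.6. In resolution 2, Mcm6 was low (7.38 CPM against 13.1 to 13.9), while Lig1 (23.2 CPM against 15.1 to 16.4) and Uhrf1 (11.3 CPM against 5.5 to 6.19) were high. Cdc45 was at 7.49 CPM in resolution 3 against 9.999 to 10.35, and Rfc5 at 6.55 CPM in resolution 1 against 4.71 to 4.95. The 3 groups stayed separate in each of these genes except Rrm1, whose inflammation and resolution libraries overlapped.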

How the results depend on the processing

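None of the 46 genes was called higher in any comparison under the settings run (0 each time). With 1 library left out at a time, 43 to 44 were lower in inflammation, 45 to 46 in resolution and 25 (without inflammation 2, resolution 3 or resolution 4) to 34 between them. Among all 15246 to 15370 genes tested in these fits, 2085 to 2996, 3370 to 4214 and 760 to 1831 were lower. Requiring a change beyond 1.5-fold left 13 between inflammation and resolution (349 of all 15049 genes), since only larger changes can pass. With the replicate number as a block over 3 groups, 44, 45 and 28 were lower, without Gins3 in resolution and Orc6, Pola1, Prim1 and E2f1 between inflammation and resolution. In that block fit 2414, 3652 and 950 of all 15049 genes were lower. The block on inflammation and resolution alone gave 36, and 36 with GC and length offsets, where E2f1 did not pass. Of all 14739 genes tested on those 2 groups, 2223 were lower without the offsets and 1706 with them. Signs changed only close to 0. Between inflammation and resolution, Pcna ran from -0.12 to 0.018 and Gins4 from -0.198 to 0.012 with 1 library left out, and Gins4 was at 0.008 with GC and length offsets and 0.005 with these and the 2-group block. In inflammation, Rfc1 ran from -0.095 to 0.176 with 1 library left out and was at -0.211 with homeostasis 1 and 2 as the sole controls. The cause was not tested. Depth limits Gins1 and Gins3, at 11 to 240 and 26 to 91 counts per library.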
